A study of Arabidopsis thaliana with 4 samples.

Results

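The ATG8 genes of Arabidopsis thaliana measured here are ATG8B (AT4G04620), ATG8C (AT1G62040), ATG8D (AT2G05630), ATG8E (AT2G45170) and ATG8F (AT4G16520). Each was taken through the 1 probe set that names it and no other gene, so the 5 genes have 5 of the 8247 probe sets analysed, and 5 of the 3592 genes that could be named on these arrays. The rule for picking probe sets uses gene names and no measured value, though the gene family was picked with earlier results of these data known. The study asked which genes change in rosette leaves when phosphate is withdrawn, and profiled 4 Affymetrix arrays, 1 for each combination of solution and time. All plants were of the accession Col-5, spent 21 days on agar and were then moved to hydroponics under constant light. The full-nutrient groups received 0.25 mM KH2PO4. The no-phosphate groups received none of it and 0.125 mM extra K2SO4 instead. Leaves were taken at 4 h or at 100 h after nutrient removal, and the number of plants behind each array is not in the labels. The numbers in the title codes differ from the labelled hours on the 3 arrays whose code has one, so the times of these arrays, on which every comparison over time rests, are in doubt. The code of the array labelled full nutrients at 100 h also puts its solution in doubt. All arrays are treated as labelled, and the ratios at 100 h are also given against the full-nutrient array at 4 h.

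ATG8 is a small protein with the fold of ubiquitin. The protease ATG4 trims its end, and a conjugation chain of ATG7 and ATG3 then attaches it to the lipid phosphatidylethanolamine in the growing autophagosome, the double membrane that carries cytoplasm to the vacuole. There it helps the membrane to close and binds receptors that bring in cargo, such as NBR1. In leaves, autophagy recycles proteins and organelles during nutrient shortage, darkness and senescence, and plants carry several ATG8 genes where yeast has 1.

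No ATG8 gene of the 5 differed by 2-fold between any pair of arrays compared, with the arrays scaled as deposited. The clearest difference was that ATG8C had less signal on the full-nutrient array at 4 h than on the other 3 arrays. ATG8B, ATG8D and ATG8F had their highest signal without phosphate at 4 h. ATG8E had its highest with full nutrients at 100 h. Intensities are linear and were scaled alike on all arrays before deposit. With 1 array in each group, no single ratio has a replicate check or a p-value. As a yardstick, the log2 ratios of different probe sets of 1 gene spread with an SD of 0.38 when the solutions were compared at 4 h and 0.43 at 100 h, and of 0.48 when the times were compared in full nutrients and 0.54 without phosphate (91 genes, 193 probe sets). That SD covers measurement on an array, and neither plants nor hybridisations.

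ATG8C stood at an intensity of 73.0 with full nutrients at 4 h and 126.5 without phosphate at that time. At 100 h it stood at 138.8 with and 124.9 without phosphate. Its highest array was thus 1.90-fold above its lowest. The 3 higher arrays lay close together, and only the full-nutrient array at 4 h was apart.

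At 4 h ATG8B stood at 27.3 with full nutrients and 38.9 without phosphate, and at 24.6 and 26.1 in the same order at 100 h. Its 3 lower values were only slightly above 22.45, the level (the mean over arrays of the median intensity) used as the filter on dim probe sets, so its ratios rest on low signal. Its highest array, without phosphate at 4 h, was 1.58-fold above its lowest.

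At 4 h ATG8F stood at 940.8 with full nutrients and 1256.3 without phosphate, and at 960.6 and 1106.0 at 100 h. At each time the no-phosphate array was the higher one, and the whole range was 1.34-fold. ATG8D kept within 1.22-fold, at 163.0 and 199.4 at 4 h and 171.9 and 166.0 at 100 h. For ATG8D the 3 arrays other than no phosphate at 4 h nearly coincided.

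At 4 h ATG8E stood at 960.0 with full nutrients and 1000.4 without phosphate, and at 1230.4 and 1089.9 at 100 h. Both 100 h arrays were above both 4 h arrays, over a range of 1.28-fold. The name of its probe set carries the suffix that Affymetrix gives to sets whose probes may match more than 1 transcript. The ATG8 genes resemble each other in sequence, and signal shared between them was not tested.

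**Figure D1:**
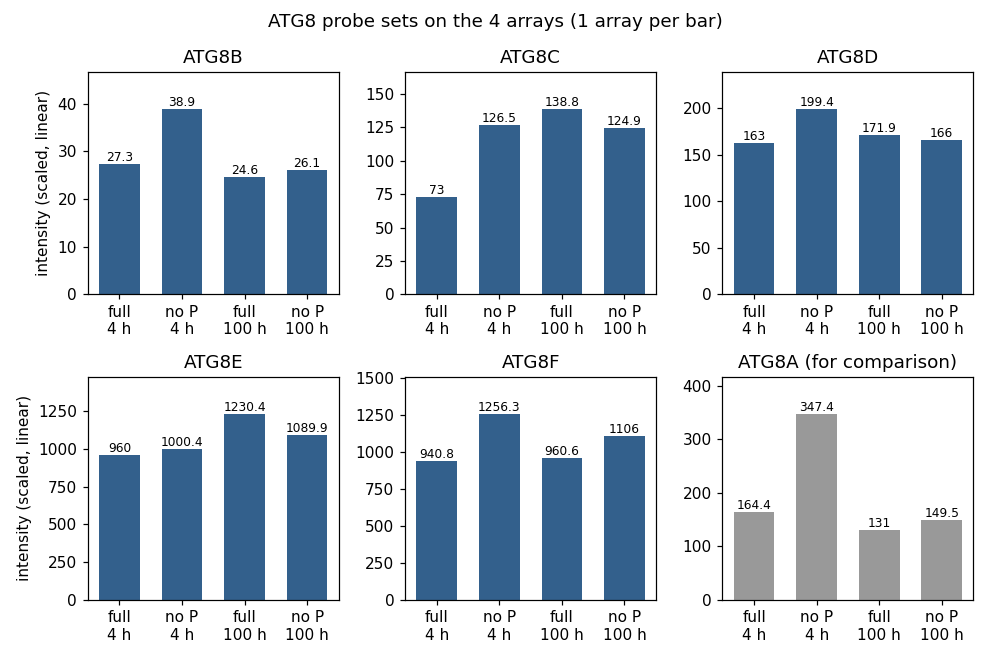
Linear intensity (y axis, from 0, with its own scale in each panel) of the 5 ATG8 probe sets and of ATG8A on the 4 arrays (x axis), 1 array per bar with no error bar since no group has a replicate. ATG8C is low on the full-nutrient array at 4 h (73.0, against 124.9 to 138.8), and ATG8A, shown for comparison, is high without phosphate at 4 h (347.4, against 131.0 to 164.4).

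After 4 h without phosphate, every one of the 5 ATG8 genes had a log2 ratio above 0 against full nutrients, and none reached 2-fold. ATG8C was 1.73-fold higher (log2 ratio 0.79), ATG8B 1.42-fold (0.51), ATG8F 1.34-fold (0.42), ATG8D 1.22-fold (0.29) and ATG8E 1.04-fold (0.06). Only the ratio of ATG8C, at 2.10 times the measurement SD of this comparison, was more than 2 SD from 0. Those of ATG8B and ATG8F were 1.35 and 1.11 times that SD, and those of ATG8D and ATG8E were inside it. Among the 4478 probe sets bright enough on 1 of the arrays, 8.87% differed by 2-fold or more in either direction, and 51.8% had a log2 ratio above 0. The median log2 ratio was 0.42 over the 5 genes and 0.02 over all those probe sets. The ratio of ATG8C was above that of 95.2% of them, ATG8B above 85.5%, ATG8F above 81.1%, ATG8D above 72.3% and ATG8E above 52.7%. All 5 ratios were also above 0 after quantile normalization and cyclic loess. ATG8E, at 0.05 after quantile normalization, was then no longer above the median of all probe sets (0.06). Spike-in scaling, which moved that median to 0.54, took ATG8C (1.31) and ATG8B (1.03) past 2-fold. It raised all 5 ratios alike at 4 h, so it could not turn their signs and was no check on them.

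Measures of the arrays moved with the solution at 4 h and at 100 h. Scanner background was lowest on the full-nutrient array at 4 h (49.74) and highest on the no-phosphate array at 100 h (69.92), with 56.94 and 55.21 on the others. Spike-ins, RNA put into each hybridisation, had a mean log2 ratio of no phosphate over full nutrients of -0.52 ± 0.12 (SD, 9 probe sets) at 4 h, and the later value was -1.06 ± 0.24. The 3' to 5' ratio of GAPDH was 4.07 and 4.52 on the full-nutrient arrays at 4 h and 100 h, and 2.61 and 2.12 on the no-phosphate arrays. For ubiquitin the ratio differed less, at 3.09 and 3.35 with full nutrients and 2.57 and 2.97 without phosphate. Leaf identity was checked with photosynthesis genes. All 8 that could be named, of 47 listed, were bright, with summed intensities of 28960 to 62620 per array and no probe set under 55.7. At 4 h the gene-averaged log2 ratios of all 8 were below 0, with a median of -0.57, opposite in sign to the ATG8 genes. At 100 h their median was -0.16, with 2 of the 8 above 0, and the ATG8 median was -0.05. No root marker of 11 listed could be named here. The part of these measures in the ATG8 ratios was not tested.

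After 100 h the ATG8 genes differed little between the solutions. ATG8F was 1.15-fold higher without phosphate (log2 ratio 0.20) and ATG8B 1.06-fold higher (0.09). ATG8E was 1.13-fold lower (-0.17), ATG8C 1.11-fold lower (-0.15) and ATG8D 1.04-fold lower (-0.05). All 5 ratios lay within 1 measurement SD of 0, the largest at 0.47 of it. None of the 5 was called, against 10.1% of 4331 probe sets, and 2 of the 5 had a ratio above 0, against 51.8%. The median was -0.05 over the 5 and 0.02 over all tested. These signs hold only for the scaling as deposited, for quantile normalization and for cyclic loess: scaling to the spike-in probe sets moved the median of all probe sets to 1.09 and put all 5 ATG8 ratios between 0.89 and 1.27, with ATG8B, ATG8D and ATG8F past 2-fold. Relative to the median of all probe sets, the median of the 5 was -0.07 both as deposited and with spike-in scaling. It was -0.101 after quantile normalization and -0.095 after cyclic loess.

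**Figure D2:**
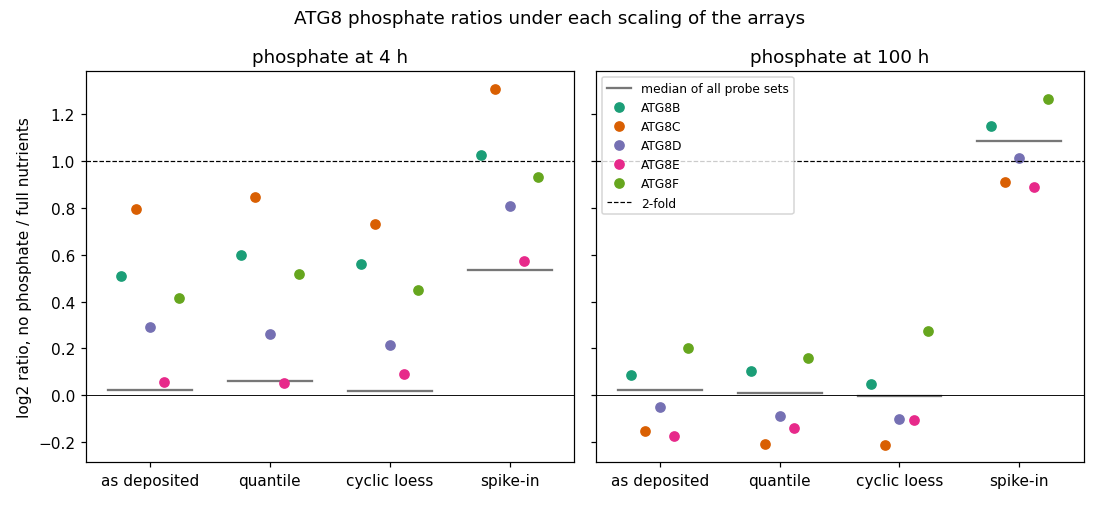
Log2 ratio of no phosphate over full nutrients (y axis) for the 5 ATG8 genes (points) under 4 scalings of the arrays (x axis), at 4 h on the left and 100 h on the right; grey bars mark the median of all probe sets and the dashed line 2-fold. At 4 h the 5 points lie above 0 in each scaling, while at 100 h they lie on both sides of 0 except after spike-in scaling, which moves the grey bar to 1.09 as well. Spike-in scaling raises all 5 points alike, so at 4 h it could not put them below 0.

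Set against the full-nutrient array at 4 h, as the title codes would allow, the no-phosphate array at 100 h gave a log2 ratio of 0.77 for ATG8C, which was 1.71-fold higher. The other 4 were at 0.23 for ATG8F, 0.18 for ATG8E, 0.03 for ATG8D and -0.07 for ATG8B. No gene of the 5 reached 2-fold there either. The ATG8C ratios at 4 h and against this control share the array on which ATG8C was low.

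With the arrays scaled as deposited, the phosphate ratio was lower at 100 h than at 4 h for every one of the 5 genes. The difference of the log2 ratios, 100 h minus 4 h, was -0.95 for ATG8C, -0.43 for ATG8B, -0.34 for ATG8D, -0.23 for ATG8E and -0.21 for ATG8F. The median over 4756 probe sets was -0.01, and 11.1% of them had a difference below that of ATG8C, while 29.5% to 39.8% were below the other 4. The ratios were also lower at 100 h after quantile normalization and cyclic loess. Spike-in scaling moved the median of all probe sets to 0.54 at 4 h and 1.09 at 100 h. Only ATG8C was then lower at 100 h, at 0.91 against 1.31 at 4 h. The other 4 were higher at 100 h. ATG8B had 1.15 against 1.03, ATG8D 1.01 against 0.81, ATG8E 0.89 against 0.57 and ATG8F 1.27 against 0.93. The difference between the times was not tested, because a model with it leaves no residual degree of freedom among 4 arrays.

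**Figure D3:**
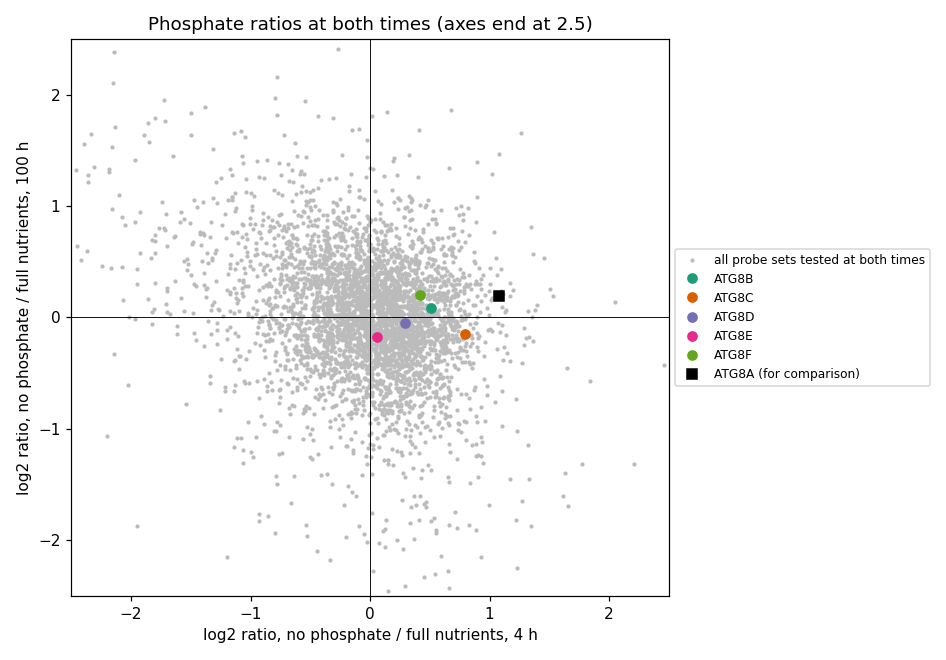
Log2 ratio of no phosphate over full nutrients at 4 h (x axis) and at 100 h (y axis) for the probe sets tested at both times (grey, axes ending at 2.5), the 5 ATG8 genes (coloured) and ATG8A (black square). The ATG8 genes lie to the right of 0 on the x axis, ATG8C at 0.79 and ATG8A farthest at 1.08, and between -0.17 and 0.20 on the y axis; 48 of the 4053 probe sets lie outside the axes.

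Over time in full nutrients, ATG8C was the only gene of the 5 to move by more than the measurement SD. It was 1.90-fold higher at 100 h than at 4 h (log2 ratio 0.93, at 1.95 times the SD). ATG8E was 1.28-fold higher (0.36), ATG8D had 0.08, ATG8F 0.03 and ATG8B -0.15. None was called, against 19.1% of 4516 probe sets. Ratios above 0 were found for 4 of the 5 and for 48.4% of all tested, and the medians were 0.08 and -0.02. The direction of the small ratios depended on the scaling: ATG8B turned above 0 after quantile normalization (0.06) and cyclic loess (0.01), and ATG8F below 0 after cyclic loess (-0.20). Spike-in scaling shifts all genes alike, here to a median of -0.17 over all probe sets, and the median of the 5 stayed 0.10 above it. ATG8C had 0.78 to 1.09 in all scalings and passed 2-fold after quantile normalization, where 18.6% of all probe sets were called.

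Over time without phosphate, ATG8B had the largest ratio of the 5. It was 1.49-fold lower at 100 h than at 4 h (log2 ratio -0.58, at 1.07 times the measurement SD). ATG8D was at -0.26, ATG8F at -0.18, ATG8C at -0.02 and ATG8E at 0.12, all inside that SD. None was called, although this comparison had the most calls of the 4, 32.8% of 4534 probe sets. A ratio above 0 was found for 1 of the 5 and for 49.1% of all tested, with medians of -0.18 and -0.02. Signs near 0 turned with the scaling: ATG8C had 0.03 after quantile normalization and after cyclic loess, and ATG8E had -0.07 after cyclic loess. Spike-in scaling moved the median of all probe sets to 0.38, and the difference of the 5 genes' median from it was -0.16, as with the scaling deposited. ATG8B was below 0 in every scaling.

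**Figure D4:**
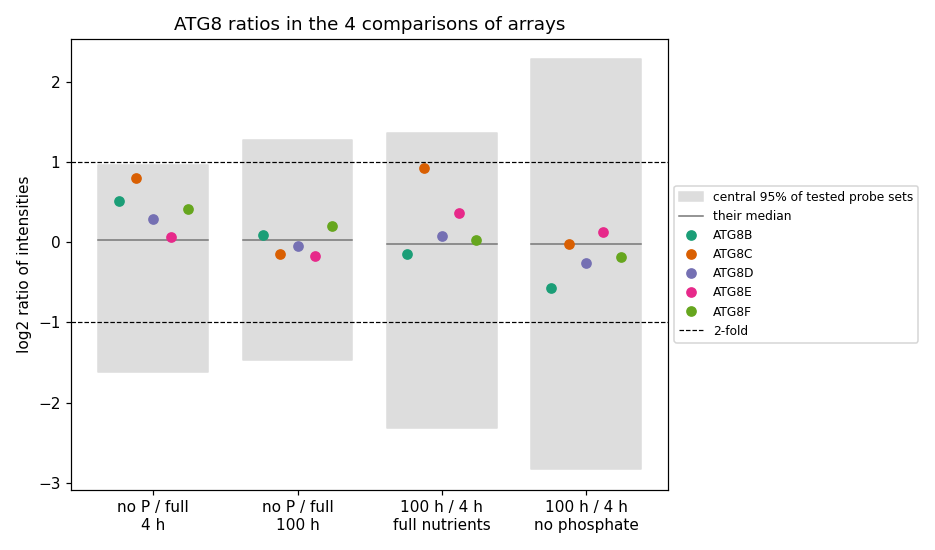
Log2 ratios (y axis) of the 5 ATG8 genes (coloured points) in the 4 comparisons of arrays (x axis), on the central 95% of all probe sets tested (grey) with their median; dashed lines mark 2-fold. All points lie between the dashed lines, ATG8C closest to them with 0.79 for phosphate at 4 h and 0.93 for time in full nutrients.

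No ATG8 gene passed limma's test for time or for phosphate. The additive model over all 4 arrays gave for time, 100 h minus 4 h, log2 differences of 0.45 ± 0.39 for ATG8C (SE, n = 4 arrays, limma adjusted p = 0.52) and -0.36 ± 0.34 for ATG8B (adjusted p = 0.558). ATG8E had 0.24 ± 0.33, ATG8D -0.09 ± 0.34 and ATG8F -0.08 ± 0.33, with adjusted p of 0.698, 0.892 and 0.914. Of the 4756 probe sets in the fit 2.02% were called for time. For phosphate, no phosphate minus full nutrients over both times, ATG8C had 0.32 ± 0.39, ATG8F 0.31 ± 0.33, ATG8B 0.30 ± 0.34, ATG8D 0.12 ± 0.34 and ATG8E -0.06 ± 0.33, each with a limma adjusted p of 0.999. The share called for phosphate was 0% of all probe sets, with 89 at an unadjusted p under 0.05, none of them one of the 5. The model has 1 residual degree of freedom, and its intervals are wide. For ATG8D, which moved least between arrays, the 95% interval of the phosphate difference runs from -0.73 to 0.98.

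The ATG8 genes did not all peak on the same array, and whether their profiles differ beyond the error of measurement was not tested. On the no-phosphate array at 4 h 3 of the 5 were highest, as were 30.3% of 4756 probe sets, and on the full-nutrient array at 4 h 4 of the 5 were lowest, as were 21.2%. After each log2 profile was centred on its mean, ATG8D and ATG8F were the most alike, with a Euclidean distance of 0.20, and ATG8B and ATG8C the least, with 0.86. ATG8E was 0.38 from ATG8D and 0.71 from ATG8B.

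Other genes with profiles like these were found by the same distance among 1387 probe sets that name 1 gene and reach the level on all arrays. For ATG8C the nearest were VHA-C3, a subunit of the proton pump of the vacuole, at 0.11, and AT4G09890 at 0.13. VHA-C3 stood at 1481.7 with full nutrients at 4 h and between 2384.9 and 2537.4 on the other 3 arrays. It was picked for this likeness, so its low value on the same array is no separate result. ATG8B was nearest to ATSTE24, a protease that processes prenylated proteins (0.04), and AT1G67250 (0.08), and ATG8F to AT4G13010 (0.04) and AT4G25680 (0.07). ATG8D was nearest to AT4G14990 and AT2G42780, both at 0.06, and ATG8E to AT4G21450 (0.06) and AT1G15060 (0.07). Such likeness rests on 4 arrays. Within a distance of 0.2 there were 8 probe sets for ATG8C and 32 to 55 for the other 4.

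Of 40 further genes of the autophagy machinery, 3 could be named on these arrays and 2 of them reached the level. ATG8A, the remaining ATG8 gene with a named probe set, was the only one of the 3 to be called. At 4 h it stood at 164.4 with full nutrients and 347.4 without phosphate, and at 131.0 and 149.5 at 100 h. It was called 2.11-fold higher without phosphate at 4 h (log2 ratio 1.08) and called lower over time without phosphate (-1.22). The shares of all probe sets called in these comparisons, in either direction, were 8.87% and 32.8%. ATG8A had -0.33 for time in full nutrients and 0.19 for phosphate at 100 h. The signs of its ratios were the same after quantile normalization and cyclic loess. After cyclic loess its ratio for phosphate at 4 h was 1.00, at the 2-fold limit. Spike-in scaling brought the ratio over time without phosphate to -0.82, under 2-fold, and that for phosphate at 100 h to 1.25. It moved only the ratio over time without phosphate toward 0, so it was no check on the other signs. For ATG8A only the no-phosphate array at 4 h was apart, and limma did not call this gene (adjusted p = 0.304 for time and 0.999 for phosphate). ATG4A, which encodes a protease that trims ATG8 proteins, stood at 94.1 and 90.4 at 4 h and at 73.5 and 82.6 at 100 h, and was not called in any of the 4 comparisons. ATG1C, of the kinase family that starts autophagy, was too dim on every array to be tested. None of 6 listed genes of the TOR and SnRK1 kinases, which set autophagy by nutrient and energy state, and none of 24 listed phosphate starvation genes could be named here.

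Of 20 listed genes of starvation and senescence 5 were measured, and ALPHA-VPE, a vacuolar protease, was too dim on all 4 arrays to be called (10.1 to 15.1). The other 4 differed in direction for phosphate at 4 h. SAG29, WRKY53 and WRKY6 all had log2 ratios below 0 over time in both solutions. GAMMA-VPE, a processing protease of the vacuole, stood at 938.6 and 1693.9 at 4 h and at 1521.5 and 1112.7 at 100 h. Like ATG8C it was lowest with full nutrients at 4 h, with log2 ratios of 0.85 for phosphate at 4 h and 0.70 for time in full nutrients, under 2-fold in each. SAG29, a sucrose transporter of senescing leaves, was called 6.11-fold higher without phosphate at 4 h and was the only gene of the list called higher there. WRKY53 and WRKY6, transcription factors of senescence, had log2 ratios of -0.80 and -0.96 for phosphate at 4 h and were not called there. Of the 4 genes, 1 was called higher at 4 h and 0 lower, and at 100 h 0 were called higher and 2 lower (SAG29 and WRKY53). Of all probe sets tested, 8.87% and 10.1% were called in either direction. Over time 3 were called lower in full nutrients (SAG29, WRKY53 and WRKY6) and 2 without phosphate (SAG29 and WRKY53), against 19.1% and 32.8% of all tested called in either direction.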

How the data were processed

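Biotin-labelled cRNA of rosette leaves was hybridised to 4 arrays, 1 per group, per the labels' protocols. The authors deposited linear intensities, 1 per probe set and array. How signals were corrected and summarised, and with which software, is not stated in the sources used. All arrays had a mean of 100.2 after trimming 2% at each end, and no further scaling was applied.

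After 50 controls were removed, 8247 probe sets remained. The platform annotation of 2016 named 1 gene for 3794, several for 70 and did not list 4383. Through gene identifiers 3784 matched the RefSeq table (TAIR10.1, names only). No probe set of several genes held an ATG8 gene described here.

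Intensities were floored at 7.25 (mean 30th percentile) and log2 values taken. A probe set was called at 2-fold or more where the brighter array reached 22.45. limma 3.58.1 in R 4.3.3 fitted time and phosphate additively (two-sided, Benjamini-Hochberg over 4756 probe sets, threshold 0.05), after it was tested on simulated data. The p-values reflect only how these 4 arrays differ, which may be technical. Genes were named by a rule of profile distance (2 nearest per gene) and from gene lists, and members and lists were chosen with earlier results of these data known. Alternatives were other floors, scalings, filters, fold limits, model terms and another control array.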

Additional observations from a re-analysis of the deposited data

Results flagged for a closer look

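The direction of a ratio differed between groups for 4 ATG8 genes, each with 1 array in a group, and the difference was not tested. The phosphate ratio was above 0 at 4 h and below 0 at 100 h for ATG8C, ATG8D and ATG8E, with differences of -0.95, -0.34 and -0.23 (log2, 100 h minus 4 h). The time ratio was above 0 in full nutrients and below 0 without phosphate for ATG8C, ATG8D and ATG8F, with differences of -0.95, -0.34 and -0.21 (log2, no phosphate minus full nutrients). These directions hold for the arrays as deposited, and scaling turned several. Spike-in scaling, which moved the median of all probe sets at 100 h to 1.09, put the 100 h phosphate ratios of ATG8C, ATG8D and ATG8E at 0.91, 1.01 and 0.89. The ratio over time without phosphate was 0.03 for ATG8C after quantile normalization and cyclic loess. With spike-in scaling, where the median of all probe sets was 0.38, it was 0.38 for ATG8C, 0.14 for ATG8D and 0.22 for ATG8F. The ratio over time in full nutrients was -0.20 for ATG8F after cyclic loess, and with spike-in scaling, where the median of all probe sets was -0.17, it was -0.12 for ATG8F and -0.07 for ATG8D. The 2 differences of a gene are 1 number, since both use the same 4 arrays. With the arrays as deposited, all these ratios were within 1 measurement SD of 0, apart from the 2 of ATG8C that involve the full-nutrient array at 4 h.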

How the results depend on the processing

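As reported, 0 of the 5 ATG8 genes were called in each of the 4 comparisons of arrays and by limma for time and for phosphate. With spike-in scaling 2 were called higher for phosphate at 4 h (ATG8B and ATG8C) and 3 at 100 h (ATG8B, ATG8D and ATG8F), where 19.1% and 60.4% of all probe sets were called. At 1.5-fold 1 gene, ATG8C, was called for phosphate at 4 h and 1, again ATG8C, for time in full nutrients. That limit called 26.5% and 39.7% of all probe sets in these comparisons. Quantile normalization also gave 1 for time in full nutrients (ATG8C), where 18.6% of all probe sets were called. The other 44 counts under the alternatives, among them that against the other control at 100 h, were 0. Of the single ratios, 94 moved by less than 1 measurement SD and 11 by more. These tallies include settings that could change nothing. Every ATG8 intensity lay above the floors, so the other floors could not move a ratio or a call by size. The other filters on level could not add such a call, as all 5 genes were already tested. limma called no ATG8 gene under any alternative run. The lowest adjusted p of the 5 was 0.435 for time, with time as the only term, and 0.281 for phosphate, with spike-in scaling, where 3 had an unadjusted p under 0.05. Over all probe sets limma's calls for time went from 96 to 0 with no floor, with no filter, after quantile normalization and after cyclic loess, to 27 with spike-in scaling, 219 with time alone and 365 with a floor at the 45th percentile, and it called 80 with a level of 100. At that level ATG8B was too dim to be tested. No array could be left out, as each group has 1. The low signal of ATG8B limits its ratios.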
